A study of Homo sapiens with 12 samples.

Results

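The genes described here encode thymic stromal lymphopoietin and members of the interleukin-1 family, cytokines and receptors through which damaged or stressed cells alert their surroundings. They are TSLP, IL1A, IL1B, IL18 and IL33 among the ligands, and IL1RL1, IL1R1 and IL1RAP among the receptors. They were chosen by name, as a short list put together with earlier results of these data in view, and make up 8 of the 50868 genes counted. TSLP was placed on the list for its response to the compound, so that response is given below as a description with no test. The samples were MG63 cells, a human osteosarcoma line of osteoblast-like cells, grown in DMEM with fetal bovine serum. In the first experiment, cells received 1 µM anticarin-beta or vehicle for 18 hours. In the second, cells were transfected with siRNA against CCT4, a subunit of the chaperonin that folds newly made actin, tubulin and other proteins, or with Allstar control siRNA, and were collected after 2 days. Each of the 4 groups had 3 RNA-seq libraries. The labels do not say whether these came from separate cultures, so p-values measure only the spread between the libraries, which may be technical.

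IL1A, IL1B, IL18 and IL33 are made without a signal peptide and leave the cell by cleavage, membrane rupture or other unconventional routes. IL1A and IL33 can act without caspase cleavage and sit partly in the nucleus, whereas the precursors of IL1B and IL18 are inactive until CASP1 or a related protease cuts them. IL1A and IL1B bind IL1R1, IL33 binds IL1RL1 (also called ST2), and both receptors signal together with the shared subunit IL1RAP through MYD88 and IRAK kinases towards NF-kB and AP-1. TSLP is an IL7-like cytokine of epithelial and stromal cells that binds CRLF2 together with IL7R and signals through JAK and STAT5 proteins. In bone, IL1 is known to drive osteoclast formation and matrix breakdown. The data are RNA levels, so neither cleavage nor release was measured.

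Total counts per library lay between 13393750 and 17492095. The CCT4 transcript, which should check the siRNA labels, went against them. It stood at 201, 200 and 216 CPM, the count relative to the scaled library size, in the libraries labelled CCT4 siRNA, against 186, 160 and 185 CPM in the control siRNA libraries (log2 fold change 0.22 ± 0.09, SE; edgeR adjusted p = 0.129). CCT4 shares exon bases with genes on the opposite strand, 81 with COMMD1 and 275 with AC107081.2. COMMD1 had 122 counts with anticarin-beta and 559 with vehicle, and 290 with CCT4 siRNA and 246 with control siRNA, and AC107081.2 had at most 18 in any group. The libraries labelled CCT4 siRNA therefore showed no lower CCT4 RNA, and every direction below refers to the labels. Under anticarin-beta CCT4 fell to 82.3 ± 8.49 CPM, against 236 ± 22.9 CPM with vehicle (SD, n = 3 each; edgeR adjusted p = 1.84e-08). The summed level of 12 osteoblast and mesenchymal markers was 20102 to 20878 CPM with anticarin-beta and 12983 to 16457 CPM with vehicle, and 7835 to 8122 CPM with CCT4 siRNA and 6162 to 6545 CPM with control siRNA. IBSP was at 0 outside the anticarin-beta group. Of 8 immune cell markers, CD3E, LYZ, TYROBP and TPSAB1 were at 0 in every library, and the list summed to 14.3 to 16.1 CPM with anticarin-beta and 7.03 to 13.1 CPM with vehicle, and to 12.2 to 15.8 CPM with CCT4 siRNA and 7.99 to 12.6 CPM with control siRNA. The 7 epithelial markers summed to at most 35.3 CPM in any library, and the 4 endothelial markers to at most 16.2 CPM. The part of these marker shifts in the results was not tested. The libraries were made from whole cultures, in which fewer cells making a transcript and less of it per cell cannot be told apart.

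The known control of these cytokines by NF-kB and AP-1 is the reason for showing matches to both motifs near their start sites. RefSeq promoter windows of 300 bases (GRCh38.p14) were held for 7 of the 8 genes, 15 windows in all. They were searched on both strands for the AP-1 motif TGANTCA and for the NF-kB consensus, which do not overlap each other in these windows. AP-1 matches were found in 2 genes (IL1A and IL1RL1) and NF-kB matches in 1 (TSLP). Counted by window, 3 of the 15 held the AP-1 motif, among them 2 overlapping IL1A windows, and 1 of the 15 held the NF-kB consensus. Of 35116 promoter windows of the same length, 7.71% held the AP-1 motif and 11.3% the NF-kB consensus. The matches follow with 10 or 11 flanking bases on each side, read 5′ to 3′ on the gene's strand, with the motif in capitals.
TSLP, NF-kB, chr5:111071512-111071541, plus strand: aggaaggtgaGGGAAATTCCtgatgacttt
TSLP, NF-kB, chr5:111071707-111071736, plus strand: tggagcatcaGGGAGACTCCaacttaaggc
IL1A, AP-1, chr2:112784488-112784516, minus strand: gcgaagaagacTGACTCAggcttaagctg
IL1A, AP-1, chr2:112784438-112784466, minus strand: tcattggcgttTGAGTCAgcaaaggtatt
IL1RL1, AP-1, chr2:102337055-102337083, plus strand: ataggaggaaaTGATTCAattatttcctc
The first TSLP match began 191 bases before the middle of the 3 listed TSLP start sites, and the second 4 bases after it. The first IL1A match began 12 bases before the upstream IL1A start site. The IL1RL1 match began 191 bases before the second of its 2 listed start sites. A match is a stretch of letters and not a measured binding site, and counts per gene do not tell which start site was used.

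Anticarin-beta was accompanied by higher RNA of all 5 ligands and of the receptors IL1RL1 and IL1RAP, and by lower RNA of IL1R1, the receptor for IL1A and IL1B. The libraries of the 2 groups overlapped for none of the 8 genes, beside 74.6% of all tested genes with no overlap. Leaving out TSLP, 6 of the other 7 genes rose and 1 fell at an adjusted p under 0.05 (edgeR quasi-likelihood test, adjusted over 17717 genes). The compound changed most of the transcriptome, with 73.0% of all tested genes called, 34.9% higher and 38.0% lower, so being called does not set these genes apart. Their median log2 fold change was 3.08 without TSLP, beside -0.06 over all genes tested. The members were chosen with these values known, and IL1RL1 was tested only because it was high with anticarin-beta. The count is therefore a description. In the second experiment 1 of the 8 genes, IL1A, differed between CCT4 siRNA and control siRNA.

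**Figure D1:**
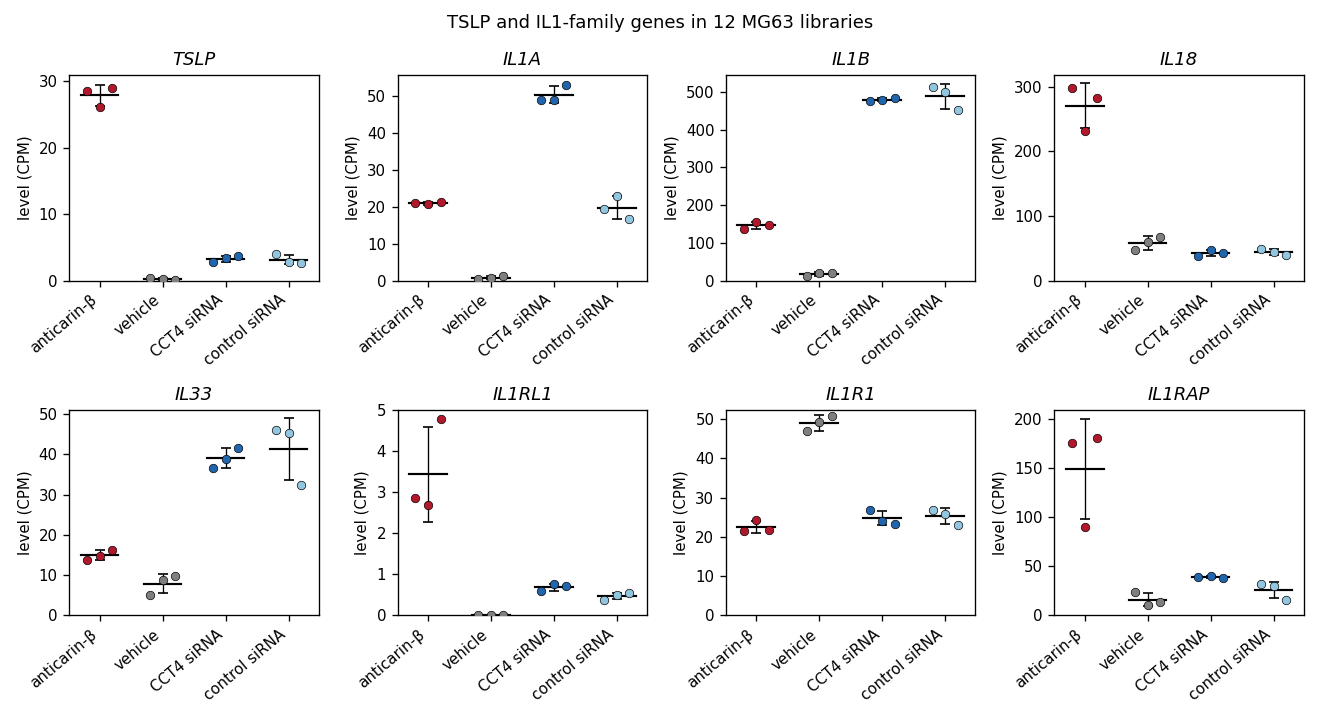
Level of each gene in CPM (vertical axis from 0, own scale per panel) in the 12 libraries. Points are libraries, horizontal lines are group means and bars are SDs (n = 3). TSLP lay at 26.1 to 29.0 CPM in the anticarin-beta libraries and at most 3.97 CPM in any other library, whereas IL1B was highest in both siRNA groups.

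TSLP (ENSG00000145777, chromosome 5, 111070062 to 111078024, plus strand, GRCh38) had 28.6, 26.1 and 29.0 CPM in the anticarin-beta libraries, against 0.320, 0.241 and 0.107 CPM in the vehicle libraries. The vehicle values rest on 6, 4 and 2 counts, those with anticarin-beta on 341, 282 and 347. The groups lay far apart, and the spread was small with the compound and wide in relative terms at the vehicle's few counts. The level was 121-fold higher with anticarin-beta (log2 fold change 6.92), as a description. No SE or interval is given for it, since those worked back from the test statistic are too narrow at 12 vehicle counts. TSLP had 2.75, 3.42 and 3.66 CPM with CCT4 siRNA and 3.97, 2.79 and 2.68 CPM with control siRNA. These 6 libraries overlapped and lay between the groups of the first experiment. The siRNA difference was a log2 fold change of 0.06 ± 0.20 (edgeR adjusted p = 0.877), with a 95% interval of 0.767- to 1.42-fold, and it was -0.07 when libraries were scaled by their totals alone. TSLP shares 230 exon bases with an antisense gene on the opposite strand, which had 0 counts in all 12 libraries.

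IL1A, the interleukin that is active as a precursor, differed in both experiments. It had 20.9, 20.6 and 21.4 CPM with anticarin-beta, against 0.533, 0.724 and 1.18 CPM with vehicle. It had 49.0, 49.0 and 53.1 CPM with CCT4 siRNA, against 19.4, 22.9 and 16.7 CPM with control siRNA. Neither pair of groups overlapped, and the CCT4 siRNA libraries were the highest of the series. IL1A rose 25.5-fold with anticarin-beta (log2 fold change 4.67; edgeR adjusted p = 5.42e-10) and 2.56-fold with CCT4 siRNA (1.36 ± 0.14; edgeR adjusted p = 8.11e-05). No SE is given against vehicle, since one worked back from the test statistic is too narrow at 44 vehicle counts. The anticarin-beta and control siRNA libraries overlapped in level, at means of 21.0 ± 0.412 and 19.7 ± 3.14 CPM (SD, n = 3 each). The gene lies on chromosome 2 (112773915 to 112784590, minus strand) and carries the AP-1 matches shown above.

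IL1B, which needs proteolytic activation, is the neighbour of IL1A on chromosome 2 (112829751 to 112836903, minus strand), 45.2 kb away. It had 137, 154 and 147 CPM with anticarin-beta, against 12.0, 20.0 and 19.8 CPM with vehicle. The lowest anticarin-beta library stood well above the highest vehicle library, and IL1B rose 8.46-fold (log2 fold change 3.08 ± 0.15; edgeR adjusted p = 1.93e-09). The siRNA groups overlapped, at 476, 479 and 484 CPM with CCT4 siRNA and 513, 498 and 452 CPM with control siRNA. Their log2 fold change was -0.02 ± 0.14 (edgeR adjusted p = 0.925), with a 95% interval of 0.799- to 1.21-fold. IL1B was thus higher in every transfected library than in any library of the first experiment.

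IL18, activated by the same protease as IL1B and best known for inducing interferon gamma, was highest with the compound. It had 298, 232 and 282 CPM with anticarin-beta, against 47.0, 59.1 and 68.2 CPM with vehicle. Its libraries did not overlap, and it rose 4.66-fold (log2 fold change 2.22 ± 0.14; edgeR adjusted p = 1.89e-08). With CCT4 siRNA it had 38.8, 46.7 and 42.9 CPM, against 49.4, 43.5 and 39.5 CPM with control siRNA. These overlapped each other, and the control siRNA range also reached into that of vehicle. The siRNA log2 fold change was -0.04 ± 0.14 (edgeR adjusted p = 0.869), with a 95% interval of 0.785- to 1.20-fold. IL18 lies on chromosome 11 (112143251 to 112164117, minus strand).

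IL33, the nuclear ligand of IL1RL1, had the smallest fold change of the ligands with anticarin-beta. It had 13.7, 14.9 and 16.1 CPM with anticarin-beta, against 5.17, 8.75 and 9.68 CPM with vehicle. The ranges were separate but close, and IL33 rose 1.90-fold (log2 fold change 0.92 ± 0.20; edgeR adjusted p = 0.00128). With CCT4 siRNA it had 36.6, 39.0 and 41.6 CPM, against 46.0, 45.5 and 32.4 CPM with control siRNA. The control siRNA range enclosed that of CCT4 siRNA (log2 fold change -0.08 ± 0.18; edgeR adjusted p = 0.809), with a 95% interval of 0.717- to 1.25-fold. As with IL1B, both transfected groups lay above both groups of the first experiment. IL33 lies on chromosome 9 (6215786 to 6257983, plus strand).

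IL1RL1, the receptor for IL33 (chromosome 2, 102311502 to 102352037, plus strand), was the scarcest of the 8. It had 2.85, 2.68 and 4.77 CPM with anticarin-beta, from 120 counts in all, against 0 counts in each vehicle library. Set against a floor of 3 counts over the vehicle group, it rose at least 62.3-fold (edgeR adjusted p = 2.79e-07). IL1RL1 passed the low-count filter only through the anticarin-beta group, where it was highest, so its calls are a description. A count of 0 allows up to 0.0555 CPM over the vehicle group, for counting error only. With CCT4 siRNA it had 0.589, 0.759 and 0.707 CPM, against 0.384, 0.507 and 0.537 CPM with control siRNA. These values did not overlap but rest on 32 and 23 counts, and the log2 fold change of 0.52 ± 0.38 did not pass (edgeR adjusted p = 0.387; 95% interval 0.797- to 2.56-fold). IL1RL1 shares 95 exon bases with IL18R1 on the same strand. IL18R1 had 10 counts with anticarin-beta, 35 with vehicle, 43 with CCT4 siRNA and 32 with control siRNA.

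IL1R1, the signalling receptor for IL1A and IL1B (chromosome 2, 102064544 to 102179874, plus strand), was the 1 member that fell. It had 21.5, 24.3 and 21.8 CPM with anticarin-beta, against 46.9, 49.3 and 50.8 CPM with vehicle. Replicates were tight and the groups far apart, and IL1R1 was 2.18-fold lower (log2 fold change -1.12 ± 0.09; edgeR adjusted p = 1.89e-07). With CCT4 siRNA it had 26.7, 24.1 and 23.3 CPM, against 26.9, 25.9 and 23.1 CPM with control siRNA. Those 6 libraries overlapped each other and, in range, the anticarin-beta libraries (CCT4 siRNA log2 fold change -0.03 ± 0.09; edgeR adjusted p = 0.848; 95% interval 0.853- to 1.12-fold). The vehicle libraries alone were high. IL1R1 shares 11 exon bases with an antisense gene, which had 1 count in all libraries together.

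IL1RAP, the shared co-receptor (chromosome 3, 190514051 to 190659750, plus strand), varied widely between replicates in every group but CCT4 siRNA. It had 176, 89.9 and 181 CPM with anticarin-beta, against 23.5, 10.4 and 13.8 CPM with vehicle. The second anticarin-beta library stood apart from the other 2 but above every vehicle library. IL1RAP rose 9.34-fold (log2 fold change 3.22 ± 0.34; edgeR adjusted p = 2.36e-06). With CCT4 siRNA it had 39.5, 40.2 and 37.6 CPM, against 31.7, 29.7 and 16.0 CPM with control siRNA. All CCT4 siRNA libraries were higher, with 1 control siRNA library well below the others. The difference of 1.52-fold did not pass (log2 0.60 ± 0.32; edgeR adjusted p = 0.220; 95% interval 0.933- to 2.47-fold). IL1RAP shares 535 exon bases with another gene on its strand, which had 0 counts in every library.

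**Figure D2:**
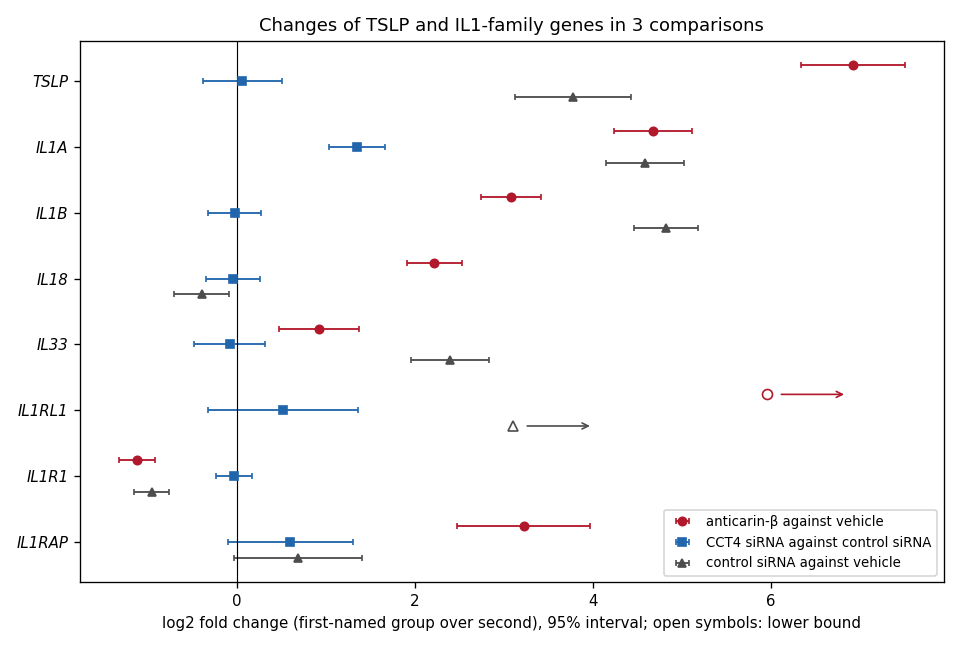
Log2 fold change (horizontal axis, first-named group over second) of each gene in 3 comparisons, with 95% intervals; open symbols with arrows are lower bounds for IL1RL1, which had 0 counts with vehicle. With CCT4 siRNA, IL1A alone among the 8 passed the test, at 1.36. Anticarin-beta and control siRNA share the vehicle libraries as their base. The intervals were worked back from the test statistic and are too narrow where vehicle counts are few, as for TSLP and IL1A. Those of TSLP against vehicle are not a test, since TSLP was chosen on its compound response.

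The siRNA comparison as a whole called 19.7% of all genes, 10.7% higher and 9.04% lower, so 1 call among 8 genes is close to that background. The median log2 fold change of the 8 was 0.02, beside 0.01 over all genes tested. The number of genes called in this comparison fell to 2202 to 2296, against 3493 with all libraries, when the first or second control siRNA library or any of the CCT4 siRNA libraries was left out. IL1A kept its call in each of those fits. The change with anticarin-beta and the change with CCT4 siRNA were set against each other in 1 model. Leaving out TSLP, this difference of responses passed for all 7 other genes, higher for 6 and lower for IL1R1, where 59.9% of all genes passed, 27.5% higher and 32.4% lower. The difference was a log2 value of 3.32 for IL1A (edgeR adjusted p = 2.31e-07), 3.11 ± 0.20 for IL1B (edgeR adjusted p = 6.53e-08) and 2.26 ± 0.20 for IL18 (edgeR adjusted p = 7.97e-07). It was 1.00 ± 0.28 for IL33 (edgeR adjusted p = 0.00717), 2.62 ± 0.46 for IL1RAP (edgeR adjusted p = 3.16e-04) and -1.09 ± 0.13 for IL1R1 (edgeR adjusted p = 1.13e-05). For IL1RL1 the adjusted p was 1.26e-05 (edgeR), with no size given because of its 0 counts with vehicle. That call is a description, since IL1RL1 entered the test through its anticarin-beta libraries. TSLP differed by 6.86, as a description. The 2 experiments differ in duration and in transfection as well as in the agent, which cannot be told apart here.

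The baselines of the 2 experiments lay far apart. Against vehicle, the control siRNA libraries had IL1B 28.3-fold higher (log2 fold change 4.82 ± 0.16; edgeR adjusted p = 3.75e-10), IL1A 24.0-fold higher (4.58; edgeR adjusted p = 3.17e-09) and IL33 5.25-fold higher (2.39 ± 0.20; edgeR adjusted p = 9.38e-07). TSLP was 13.7-fold higher (3.77), described without a test since the vehicle libraries are those it was chosen on. IL1RL1 was at least 8.61-fold higher, from 23 counts with control siRNA against 0 with vehicle (edgeR adjusted p = 2.21e-04). That call too is a description, since IL1RL1 passed the low-count filter through the anticarin-beta group. IL1R1 was lower (-0.95 ± 0.09; edgeR adjusted p = 2.68e-06), and IL18 was slightly lower with overlapping libraries (-0.40 ± 0.14; edgeR adjusted p = 0.0328). That IL18 call was lost without the second (-0.39) or the third (-0.27) vehicle library, without the second (-0.39) or the third (-0.32) control siRNA library, and with library totals alone (-0.34). IL1RAP did not pass (0.69 ± 0.33; edgeR adjusted p = 0.105), but did without the first vehicle library (1.08), without the third control siRNA library (0.94) and with no low-count filter (0.71). Leaving out TSLP, 4 of the 7 genes were called higher and 2 lower, where 48.4% of all genes were called, 24.8% higher and 23.6% lower. Transfection, time in culture and experiment cannot be told apart in it, and it shares the vehicle libraries with the comparison of anticarin-beta.

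The order of the 4 groups differed between genes. IL1B and IL33 ran from vehicle through anticarin-beta to the siRNA groups, which overlapped each other. TSLP and IL1RL1 ran from vehicle through control siRNA and CCT4 siRNA to anticarin-beta, with the siRNA groups overlapping for TSLP and separate for IL1RL1. IL1A was lowest with vehicle and highest with CCT4 siRNA, with the anticarin-beta and control siRNA libraries overlapping between them. IL18 was high with anticarin-beta and overlapped between each neighbouring pair of the other 3 groups. IL1R1 was high with vehicle and overlapped among the others, and IL1RAP was highest with anticarin-beta, followed by CCT4 siRNA, then control siRNA and vehicle, which overlapped.

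Levels per kilobase of exon, in RPKM, allow the genes to be ranked within a group. With anticarin-beta, IL18 led at 103 ± 13.1 RPKM and IL1B followed at 47.2 ± 2.85 RPKM, with IL1RAP at 12.9 ± 4.43, IL1A at 9.87 ± 0.194 and TSLP at 6.52 ± 0.375 RPKM (SD, n = 3 each). With vehicle, IL18 was again first at 22.1 RPKM, whereas TSLP stood at 0.0520 RPKM. These values use all annotated exon bases of a gene, so they depend on the isoforms listed for it. In both siRNA groups IL1B was first, at 155 RPKM with CCT4 siRNA and 158 RPKM with control siRNA. TSLP therefore remained a minor transcript beside IL18 and IL1B in each group despite its large fold change.

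Within a library, IL1A gained on IL1B in both experiments. The ratio of IL1A to IL1B in RPKM was 0.222, 0.195 and 0.212 with anticarin-beta, against 0.0648, 0.0527 and 0.0864 with vehicle. It was 0.150, 0.149 and 0.160 with CCT4 siRNA, against 0.0551, 0.0671 and 0.0539 with control siRNA. Neither pair overlapped. The ratio of geometric means was 3.15 with anticarin-beta over vehicle and 2.62 with CCT4 siRNA over control siRNA, each with a two-sided exact permutation p of 0.1, the smallest that 3 against 3 libraries allow. Control siRNA over vehicle gave overlapping values (exact permutation p = 0.7), although each gene was far higher with control siRNA. IL1RAP over IL1R1, the co-receptor relative to the receptor, was 5.02, 2.27 and 5.10 with anticarin-beta, against 0.307, 0.130 and 0.166 with vehicle, a 20.6-fold difference in geometric mean. That ratio was 0.905, 1.02 and 0.988 with CCT4 siRNA, against 0.722, 0.703 and 0.424 with control siRNA, 1.62-fold apart. It was 3.19-fold higher with control siRNA than with vehicle, again with no overlap. All 3 differences had an exact permutation p of 0.1, the smallest possible. The co-receptor was thus more abundant per length than the receptor in each anticarin-beta library and less abundant in each vehicle and control siRNA library.

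**Figure D3:**
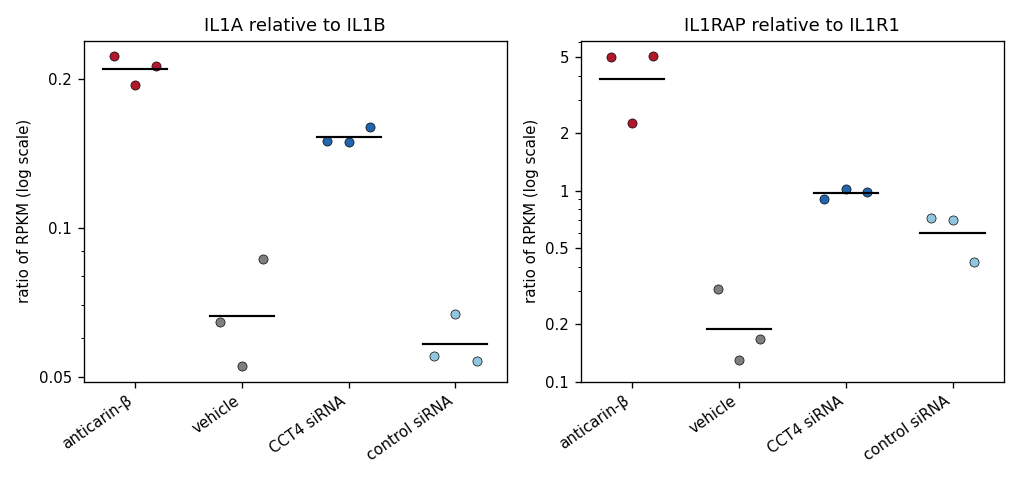
Ratio of 2 genes within each of the 12 libraries, from RPKM values on a log scale (IL1A over IL1B, left; IL1RAP over IL1R1, right). Points are libraries and lines are geometric means. IL1A over IL1B was 0.149 or more in the anticarin-beta and CCT4 siRNA libraries and at most 0.0864 in the vehicle and control siRNA libraries.

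Across the 12 libraries, the likeness of the genes was described by Pearson's r of log2 CPM, in which the 4 groups and their shared controls set most of the variation. TSLP and IL1RL1 were most alike (r = 0.98), TSLP and IL1RAP reached 0.91, and IL1B and IL33 reached 0.96. With vehicle, TSLP and IL1RL1 rest on 12 and 0 counts, where the prior count of 2 used for log2 CPM sets much of the value. IL1A and IL1B had r = 0.94, TSLP and IL33 had 0.34, and IL1B and IL18 had -0.17. Of 14791 genes searched, those most like TSLP were CNST (r = 0.995), STK35, PHC2, OTUD3 and TMED5 (0.990). CNST had 143 CPM with anticarin-beta and 23.2 CPM with vehicle, and 59.9 CPM with CCT4 siRNA and 57.5 CPM with control siRNA, the same order of groups as TSLP over a narrower range. The genes most like IL1B were IRAK2 (0.996), MAP3K7CL and PPP4R4. IRAK2 is a kinase of the IL1 receptor complex and was counted among the signal proteins below. IL1A was most like SDC4, ZC3H12C and CSGALNACT2, IL18 most like SBF2-AS1, PARD6G and GPRC5B, and IL33 most like VNN1, ERRFI1 and IRF7. The nearest patterns to IL1RL1 were SLC6A8, HDAC9 and DCP1A, to IL1R1 SPSB4, GCLM and FOXRED2, and to IL1RAP NPTN, LARP1 and MEF2C.

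The nearest tested neighbour on each side was examined for the comparison of anticarin-beta with vehicle. In it 73.0% of all tested genes were called, about as many higher as lower. WDR36, a ribosome biogenesis gene 13.7 kb from TSLP, rose 4.73-fold to 144 CPM with anticarin-beta, against 30.5 CPM with vehicle (log2 fold change 2.24 ± 0.16; edgeR adjusted p = 4.89e-08). SLC25A46, 305 kb away on the other side of TSLP, fell (-0.66; edgeR adjusted p = 4.12e-06). BCO2, a carotenoid-cleaving enzyme gene 11.4 kb from IL18, rose 4.27-fold to 35.8 CPM with anticarin-beta, against 8.39 CPM with vehicle (edgeR adjusted p = 5.77e-08). BCO2 stood at 8.88 CPM with CCT4 siRNA and 8.96 CPM with control siRNA, each below its level with the compound. On the other side, AP002884.2 overlaps IL18 and had 1.46 CPM with anticarin-beta, against 0.0958 CPM with vehicle (edgeR adjusted p = 0.00105). CKAP2L beside IL1A (-0.58; edgeR adjusted p = 0.00180) and RANBP6 beside IL33 (-0.68; edgeR adjusted p = 4.01e-04) fell while their neighbours rose. UTS2B, 607 kb from IL1RAP, rose (3.03; edgeR adjusted p = 4.13e-05). Other neighbours were not called. These were CLDN16 beside IL1RAP (1.60; edgeR adjusted p = 0.0590) and MAP4K4 beside IL1R1 (0.01; edgeR adjusted p = 0.850). Nor were IL37 beside IL1B (-1.90; edgeR adjusted p = 0.121) and RP11-307L3.2 beside IL33 (-0.29; edgeR adjusted p = 0.525) called. IL37 stood at 0.0280 CPM with anticarin-beta and 0.131 CPM with vehicle, so low that a call was hardly possible. IL18R1, which overlaps IL1RL1, is described with the receptors below.

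Genes around these cytokines were read as 7 lists of 97 symbols, each described by its count and median. Of all tested genes, 73.0% were called with anticarin-beta (34.9% higher, 38.0% lower) and 19.7% with CCT4 siRNA (10.7% higher, 9.04% lower). Each list count is to be read beside those shares. Among 10 other ligands and antagonists, 5 were counted well enough to test. Of these, IL36B and IL37 reached that level only in the siRNA groups. IL36B had 0.0587 CPM with anticarin-beta and 0 with vehicle, and IL37 had 0.0280 and 0.131 CPM. Both could hardly be called in that comparison, yet its count and median include them. With anticarin-beta 1 rose and 1 fell. IL18BP, the secreted decoy that binds IL18, rose 2.62-fold to 15.8 ± 2.59 CPM, against 6.05 ± 2.28 CPM with vehicle (SD, n = 3 each; edgeR adjusted p = 1.50e-04). IL7, the relative of TSLP, fell to 8.21 ± 0.229 CPM, against 17.5 ± 5.29 CPM with vehicle (SD, n = 3 each; edgeR adjusted p = 3.55e-04). The list's median was 0.65, or 0 once IL36B, with 0 counts under vehicle, was set to its bound. With CCT4 siRNA 0 of the 5 passed under edgeR or DESeq2, and 1 was lower at an unadjusted p under 0.05 (edgeR; median -0.32). Without the third control siRNA library, 1 was called lower.

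Among 10 other receptors, 5 could be tested, and with anticarin-beta 2 rose and 3 fell (median -0.39). The 2 that rose are the subunits of the TSLP receptor. IL7R rose 8.86-fold to 118 ± 2.51 CPM, against 13.3 ± 0.712 CPM with vehicle (SD, n = 3 each; edgeR adjusted p = 5.96e-12). CRLF2 rose 2.87-fold to 13.2 ± 1.41 CPM, against 4.60 ± 0.232 CPM with vehicle (SD, n = 3 each; edgeR adjusted p = 1.30e-07). Both were higher still after transfection, at 312 CPM with CCT4 siRNA and 334 CPM with control siRNA for IL7R, and at 63.1 and 70.4 CPM for CRLF2 in those groups. IL17RB, the receptor for IL25, fell 3.48-fold (edgeR adjusted p = 2.27e-04), and SIGIRR, an inhibitory member of the IL1 receptor family, fell by 0.39 on the log2 scale (edgeR adjusted p = 0.00268). IL18R1, the ligand-binding receptor for IL18, was the fifth (-1.14; edgeR adjusted p = 0.0231). Its call was lost under DESeq2 (-1.10), without a low-count filter (-1.17), and without the third vehicle (-0.90) or the first (-1.06) or the second (-1.12) anticarin-beta library. With CCT4 siRNA 0 of the 5 passed under edgeR or DESeq2, and 0 had an unadjusted p under 0.05 (edgeR; median -0.10), whereas library totals alone gave 1 lower.

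The signal proteins moved in both directions. Of 21 proteins downstream of IL1R1, 10 rose and 7 fell with anticarin-beta (median 0.24), where 34.9% and 38.0% of all tested genes did. IRAK2 rose 4.61-fold to 61.5 CPM, against 13.4 CPM with vehicle (edgeR adjusted p = 9.91e-09). PELI1, a ubiquitin ligase of the pathway, rose 3.65-fold (edgeR adjusted p = 8.57e-09), and MAP2K3, a p38 kinase activator, rose 3.71-fold (edgeR adjusted p = 1.10e-08). TAB1, a partner of the kinase MAP3K7, fell 4.83-fold (edgeR adjusted p = 4.63e-09). MYD88 fell 2.36-fold (edgeR adjusted p = 0.00675), IRAK3 3.58-fold (edgeR adjusted p = 2.81e-07) and IRAK4 4.81-fold (edgeR adjusted p = 8.82e-05). IRAK1 rose 1.64-fold (edgeR adjusted p = 1.88e-04). With CCT4 siRNA 3 of the 21 rose and 4 fell (median -0.16), MAP2K3 by 0.60 upwards (edgeR adjusted p = 0.00322), and PELI1 by -0.58 (edgeR adjusted p = 0.00336), TRAF6 by -0.54 (edgeR adjusted p = 0.00966) and MAPK8 by -0.38 (edgeR adjusted p = 0.00791) on the log2 scale. Under library-total scaling these counts became 1 up and 7 down, and 1 rather than 3 rose without the second library of either siRNA group. All 6 tested proteins of TSLP receptor signalling were called with anticarin-beta, 3 up and 3 down (median -0.11), where 73.0% of all tested genes were called. JAK2, which pairs with CRLF2, fell 14.8-fold to 0.769 ± 0.497 CPM, against 11.6 ± 1.37 CPM with vehicle (SD, n = 3 each; edgeR adjusted p = 1.28e-07). CISH, a target of STAT5, fell 6.82-fold to 0.285 ± 0.188 CPM, against 2.02 ± 0.565 CPM with vehicle (SD, n = 3 each; edgeR adjusted p = 1.06e-04). The level with anticarin-beta lay near that of 3 counts in such a library, 0.251 to 0.277 CPM. JAK1, which pairs with IL7R, rose 1.56-fold (edgeR adjusted p = 6.91e-07), and STAT3 rose 1.42-fold (edgeR adjusted p = 2.22e-06), a call lost with library totals alone (log2 0.09). With CCT4 siRNA, JAK2 fell by 0.97 on the log2 scale (edgeR adjusted p = 0.0127) and the other 5 did not pass. The JAK2 call was lost without the second CCT4 siRNA library (-0.81).

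Among 22 genes of the inflammasome and of cytokine cleavage and release, 19 could be tested. AIM2 had 0 counts with anticarin-beta and with vehicle, and NLRP3 had 0 and 0.109 CPM there. CASP5 had 0 counts in both siRNA groups. AIM2 and CASP5 could not be called in those comparisons, and NLRP3 hardly could, yet the counts and medians include them. Of the 19, 5 rose and 7 fell with anticarin-beta (median -0.35), where 34.9% and 38.0% of all tested genes did. CASP1, the protease that activates IL1B and IL18, rose 5.65-fold to 88.5 ± 3.57 CPM, against 15.7 ± 0.343 CPM with vehicle (SD, n = 3 each; edgeR adjusted p = 1.49e-10). CASP4, a sensor of intracellular lipopolysaccharide, rose 5.01-fold (edgeR adjusted p = 1.93e-09). GSDMD, whose cleaved form makes the membrane pore, fell 6.42-fold to 16.2 ± 0.726 CPM, against 104 ± 11.7 CPM with vehicle (SD, n = 3 each; edgeR adjusted p = 3.53e-10). CAPN1, a calpain of the kind that cuts the IL1A precursor, fell 4.10-fold (edgeR adjusted p = 2.94e-10). With library totals alone, 11 genes of the list were lower with anticarin-beta. With CCT4 siRNA 1 rose and 1 fell (median -0.06). These were CAPN1 (log2 0.24; edgeR adjusted p = 0.0462) and GSDME (-0.50; edgeR adjusted p = 0.0389), and the calls were lost in 15 and 8 of 21 alternative fits.

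Of 20 genes known to be induced by IL1, 18 rose and 0 fell with anticarin-beta (median 2.5), and 19 rose and 0 fell with CCT4 siRNA (median 1.06). This list, like the others, was chosen with earlier results of these data known, so its counts are a description. Control siRNA against vehicle also had 17 of the 20 higher and 1 lower (median 1.98), so the rise was not particular to these 2 treatments. Over all tested genes, 34.9% were called higher with anticarin-beta, 10.7% with CCT4 siRNA and 24.8% with control siRNA against vehicle. At an unadjusted p under 0.05, 0 were lower in either comparison (edgeR), and DESeq2 called 0 lower. MMP3, a matrix protease, rose 49.3-fold with anticarin-beta, and CXCL8, the neutrophil chemokine, rose 24.6-fold to 12483 CPM, against 508 CPM with vehicle (edgeR adjusted p = 2.24e-11 and 1.45e-10). CXCL2 rose 17.9-fold with CCT4 siRNA, to 245 CPM, against 13.7 CPM with control siRNA (edgeR adjusted p = 2.65e-09). CXCL1 rose 3.27-fold and CXCL3 3.33-fold there (edgeR adjusted p = 5.48e-07 and 6.14e-07). TNFAIP3, the inhibitor of NF-kB signalling also called A20, rose 5.65-fold with anticarin-beta and 3.80-fold with CCT4 siRNA (edgeR adjusted p = 7.57e-11 and 2.23e-08). ICAM1, an adhesion molecule, rose 4.33-fold with anticarin-beta (edgeR adjusted p = 3.69e-11). Beside these 19 genes, IL1A was the 1 cytokine of the 5 that rose with CCT4 siRNA. With library totals alone, 1 of the 20 was lower with anticarin-beta. The last list holds 8 genes entered as other alarmins, among them ADM, which encodes a peptide hormone. Of these, 6 could be tested, and 3 rose and 0 fell in each comparison (median 0.28 with anticarin-beta and 0.35 with CCT4 siRNA). At an unadjusted p under 0.05, 0 of the 6 were lower in either comparison (edgeR), DESeq2 called 0 lower, and 1 was called lower with anticarin-beta when its first library was left out. ADM rose 5.23-fold with anticarin-beta (edgeR adjusted p = 1.50e-09) and 1.68-fold with CCT4 siRNA (edgeR adjusted p = 7.58e-04). ANXA1 rose 2.93-fold with anticarin-beta (edgeR adjusted p = 5.43e-09) and 1.24-fold with CCT4 siRNA (edgeR adjusted p = 0.0252), the smaller call being lost in 6 of 21 alternative fits. S100A9 rose by 0.49 with anticarin-beta (edgeR adjusted p = 0.0383), a call lost in 8 of 21 alternatives, and CALR by 0.28 with CCT4 siRNA (edgeR adjusted p = 0.00551), a call lost with library totals alone (0.15). In that scaling 2 of these 6 genes were lower with anticarin-beta and 1 was higher with CCT4 siRNA.

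**Figure D4:**
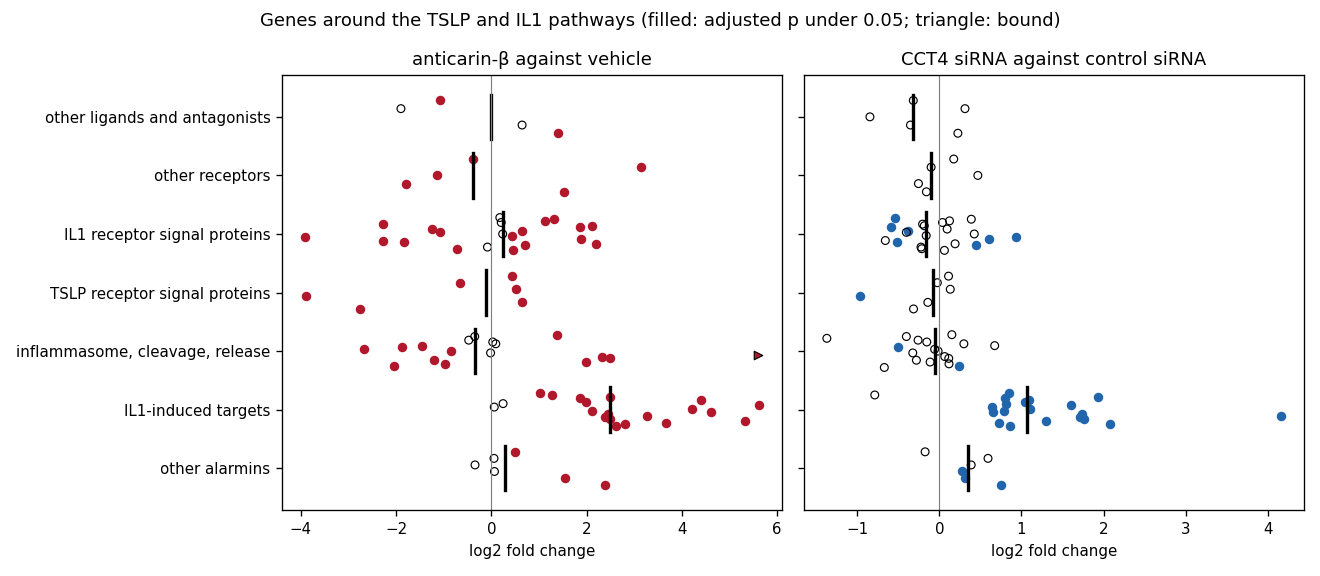
Log2 fold change of each tested gene in the 7 lists (horizontal axes differ in scale), with anticarin-beta against vehicle on the left and CCT4 siRNA against control siRNA on the right. Filled symbols passed at an adjusted p under 0.05, black bars are list medians, the triangle is CASP5 at its lower bound, and genes near or under 3 counts per group with a group at 0 are not drawn. Of the 20 IL1-induced targets, 18 were called to the right of 0 with anticarin-beta and 19 with CCT4 siRNA, with medians of 2.5 and 1.06; VCAM1, not called, lies left of 0 on the right.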

How the data were processed

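RNA-seq was done on 12 MG63 libraries, 3 for each of 4 groups, with a stranded TruSeq kit per the labels' protocols. The authors deposited raw read counts per gene in 1 table, not normalized. Reads were aligned to hg38 and counted with tools that the submitters' processing notes name as STAR 2.5.2a and featureCounts 1.5.0. No source used here gives the annotation release or the strand setting, so antisense and same-strand exon overlaps are stated beside each gene. Gene positions come from GENCODE release 29 (98.5% of identifiers found).

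Counts were scaled by TMM and tested with edgeR 4.0.16 (R 4.3.3): quasi-likelihood fit over all 12 libraries, filterByExpr over the 4 groups, 17717 genes, Benjamini-Hochberg adjustment and a threshold of 0.05. The script was tested on simulated data. Fold changes use a prior count of 0.125. CPM used TMM-scaled totals. RPKM is that CPM per kilobase of exon. Precision is limited by counts, and floors cover counting error only. Alternative fits changed the scaling (library totals alone, RLE, upper quartile), the tool (limma-voom 3.58.1, DESeq2 1.42.0), the filter, the samples (each experiment alone, each library left out) or added a replicate block. The genes and lists were chosen with earlier results of these data known. Named list genes are up to 4 called ones per list and comparison with the smallest p and at least 1 CPM. Neighbours are the nearest tested genes. IL18R1, IL36B, CASP5, AIM2, NLRP3, MYD88, IRAK1, IRAK3 and IRAK4 were named after their values were seen. TSLP with the compound has no p because it was chosen on it.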

Additional observations from a re-analysis of the deposited data

How the results depend on the processing

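With anticarin-beta, all 8 genes kept their direction and the 7 tested ones their call in all 21 alternatives. The log2 fold change ranged from 6.51 (library totals alone) to 7.28 (without the first vehicle library) for TSLP, from 4.26 to 5.04 for IL1A, from 2.67 to 3.18 for IL1B, from 0.51 to 1.09 for IL33, from 1.80 to 2.34 for IL18, from 2.80 to 3.61 for IL1RAP and from -1.54 to -1.06 for IL1R1. Under CCT4 siRNA, IL1A ranged from 1.23 to 1.48 and stayed called. Uncalled values near 0 changed sign there. TSLP was -0.070 with library totals alone, and from -0.044 (without the third control siRNA library) to 0.26 (without the first) with single libraries left out. In the same way IL1B ranged from -0.077 to 0.012, IL33 from -0.23 to 0.0038, IL18 from -0.12 to 0.044 and IL1R1 from -0.093 to 0.014, lowest without the third and highest without the first control siRNA library. Leaving out single libraries gave 12478 to 13148 genes called with anticarin-beta, 2202 to 4026 with CCT4 siRNA and 10160 to 10614 for the difference of responses. Library totals alone moved the median of all genes to -0.48 with anticarin-beta (4292 higher and 8959 lower, beside 6186 and 6740) and to -0.12 with CCT4 siRNA (902 and 2800, beside 1892 and 1601). For the difference of responses it gave 3724 higher and 7283 lower, beside 4866 and 5744. The cause was not tested. Replicate numbers did not pair the libraries (correlations of same-numbered deviations from -0.031 to 0.026). With the replicate block, 12637 genes were called with anticarin-beta, 2350 with CCT4 siRNA and 10125 for the difference of responses. At this depth TSLP and IL1RL1 with vehicle rest on 12 and 0 counts, which limits the precision of their fold changes.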
